A study of Mus musculus with 29 samples.

Results

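The genes described here encode the proteins that load peptides and show them to T cells in the liver of mice on a high-fat diet. They were chosen by name on the array: every gene whose name starts with H2-, the prefix of the mouse major histocompatibility complex (MHC), together with B2m, Tap1, Tap2, Tapbp, Cd74, Ciita, Nlrc5, Psmb8, Psmb9 and Psmb10. The rule found 78 spots, 60 probes and 50 genes among the 43020 spots, 39429 probes and 31693 genes of the array that were not controls, and 38 of the 50 genes were bright enough to be tested. Of the 50, 42 genes had a probe that the array files place on chromosome 17, and for 3 the files gave no position.

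Male C57BL/6N mice, aged 3 months when the diets began, were kept for 7 weeks on high-fat food made with corn oil (cHF), the base diet that all 4 groups shared. The 7 control livers came from mice given cHF alone. Another 6 livers came from mice given rosiglitazone at low dose in cHF (cHF+R), a drug that activates the nuclear receptor PPAR-gamma. For 8 livers, about 7% of the dietary lipid was exchanged for marine phospholipids, mainly phosphatidylcholine, carrying the omega-3 fatty acids EPA and DHA (cHF+PC), and a further 8 livers came from mice given both (cHF+PC+R). RNA of each of the 29 livers, labelled with Cy5, was hybridised on a 2-colour array against a Cy3-labelled equimolar pool of the samples, so every value below is a log2 ratio of a liver over that pool, and a change is a difference of mean log2 ratios with its standard error. The authors removed 1 high-fat and 1 rosiglitazone array before depositing the rest, and the p-values measure the spread between these livers. All comparisons with cHF share the same 7 control livers.

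MHC class I molecules consist of a heavy chain (H2-K1, H2-D1 and the many H2-Q, H2-T and H2-M genes) paired with the light chain B2m. They carry peptides that the proteasome, or its inducible form with the subunits Psmb8, Psmb9 and Psmb10, cuts in the cytosol and that the Tap1/Tap2 transporter, bridged by Tapbp, delivers into the endoplasmic reticulum. Class II molecules (H2-Aa with H2-Ab1, and H2-Eb1) are guided by the invariant chain Cd74 and loaded with the help of H2-DMa and H2-DMb1, and are typical of macrophages, dendritic cells and B cells. Nlrc5 and Ciita are the master coactivators of class I and class II genes, and hepatocytes, Kupffer cells and sinusoidal endothelium all carry class I molecules at their surface. In whole liver, fewer cells of a type and less RNA per cell cannot be told apart.

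The upstream sequences are shown first because they hold the known control elements of these genes, in members that changed and in members that did not. A promoter of 300 bases was found by symbol in RefSeq sequences of build GRCm38.p6 for 36 of the 50 genes. Each was searched on both strands for the NF-kB site of class I promoters (10 bases, all required), TGACG (the core of the X2 box), CCAAT (the core of the Y box) and the core of the interferon-stimulated response element. These letters occur in 0.107%, 20.8%, 37.4% and 3.44% of the 32851 promoters of the same length, so the short ones are common. Read on opposite strands, TGACG can overlap itself, as it does in H2-Aa. Capitals mark matches to the first 3 patterns on either strand, and each line ends 1 base before the annotated start. The first 4 lines are class I heavy chains, namely H2-K1 (chr17:34000348-34000527, minus strand, the first of its 2 listed starts), H2-D1 (chr17:35262914-35263093, plus strand), H2-Q7 (chr17:35438975-35439154, plus strand) and H2-Q10 (chr17:35469909-35470088, plus strand).
H2-K1: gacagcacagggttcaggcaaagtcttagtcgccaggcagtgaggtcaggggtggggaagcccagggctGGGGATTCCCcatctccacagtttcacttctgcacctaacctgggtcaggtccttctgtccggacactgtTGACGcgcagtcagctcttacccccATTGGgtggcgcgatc
H2-D1: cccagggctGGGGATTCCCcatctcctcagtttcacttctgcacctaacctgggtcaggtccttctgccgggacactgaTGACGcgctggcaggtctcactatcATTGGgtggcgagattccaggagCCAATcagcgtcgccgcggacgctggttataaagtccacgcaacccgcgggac
H2-Q7: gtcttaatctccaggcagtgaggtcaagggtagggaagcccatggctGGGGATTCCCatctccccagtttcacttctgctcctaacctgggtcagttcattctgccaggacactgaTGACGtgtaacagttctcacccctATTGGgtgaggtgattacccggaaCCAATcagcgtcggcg
H2-Q10: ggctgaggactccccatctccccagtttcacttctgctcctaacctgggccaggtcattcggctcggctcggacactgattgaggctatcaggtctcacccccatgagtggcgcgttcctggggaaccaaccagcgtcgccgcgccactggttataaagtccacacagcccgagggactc
The NF-kB pattern was present in 4 of the 36 promoters, those of H2-K1, H2-D1, H2-Q6 and H2-Q7. These 4 are among 9 class I promoters looked at as a set, of H2-K, H2-D, H2-Q and H2-T genes and H2-gs10. In H2-Q10 the best stretch matched 8 of its 10 bases, and none of the 4 patterns was found in the H2-Q10 or H2-T3 window. H2-K1, H2-Q7, H2-Q10 and H2-T3 were all lower with the phospholipids while H2-D1 and H2-Q6 did not pass the test, so the genes that passed included promoters with and without these letters.

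The class II promoters and the interval shared by Tap1 and Psmb9 are shown because these genes varied together from liver to liver. For class II, 8 promoters were looked at as a set: H2-Aa, H2-Eb1, H2-DMa, H2-DMb1, H2-Oa, H2-Ob, H2-Eb2 and H2-DMb2. All 8 held CCAAT on one strand or the other, and H2-Aa held TGACG as well. Cd74 and H2-Ab1 were not in this set, and H2-Eb2 and H2-DMb2 were too dim to test. Tap1 and Psmb9 start 225 bases apart on opposite strands, so the stretch between them lies upstream of both. The lines give H2-Aa (chr17:34287824-34287933, minus strand), H2-Eb1 (chr17:34305757-34305866, plus strand) and the whole interval between Tap1 and Psmb9, read in the direction of Tap1 (chr17:34187331-34187555, plus strand).
H2-Aa: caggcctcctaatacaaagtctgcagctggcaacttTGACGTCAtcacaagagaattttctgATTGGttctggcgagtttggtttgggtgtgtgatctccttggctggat
H2-Eb1: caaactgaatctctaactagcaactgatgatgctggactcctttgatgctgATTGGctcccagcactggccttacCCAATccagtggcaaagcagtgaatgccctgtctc
Tap1-Psmb9: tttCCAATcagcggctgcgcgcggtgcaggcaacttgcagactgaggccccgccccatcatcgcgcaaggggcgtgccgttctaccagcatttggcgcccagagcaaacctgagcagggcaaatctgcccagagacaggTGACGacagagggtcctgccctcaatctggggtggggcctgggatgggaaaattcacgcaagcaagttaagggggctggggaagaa
A match to these letters is a description of the sequence and shows no binding.

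Class I genes are near copies of one another, which bears on what a probe measures. Among the 1770 pairs of member probes, 7 pairs shared a run of at least 15 identical bases. The probe for H2-Q10 and the one for H2-T3 shared 22 bases, and the second probe of H2-K1 shared 29 bases with the H2-T23 probe. Both pairs are printed as 30 bases of each probe with the shared run in capitals, beside the first 30 bases of the H2-Q1 probe, which carries the largest change. In the mm9 positions of the array files these probes lie at chr17:35611449-35611508 (H2-Q10), chr17:36322516-36322575 (H2-T3), chr17:34133984-34134043 (H2-K1, second probe), chr17:36167338-36167574 (H2-T23, a span that is longer than the probe) and chr17:35461859-35461918 (H2-Q1). Exon and UTR annotation of that build was not used here.
H2-Q10: gagtTTGTGGAGGAAATAAATGGCAGatgg
H2-T3: agtaTTGTGGAGGAAATAAATGGCAGcatg
H2-K1 second probe: cTGGAGCTGTGGTGGCTTTTGTGATGAAGA
H2-T23: tTGGAGCTGTGGTGGCTTTTGTGATGAAGA
H2-Q1: attcactgaacacatctttacagagttgta
The H2-Q1 probe shared no run of 15 bases with any other member probe. Changes of H2-Q10 and H2-T3 may therefore not be separate measurements, and the same holds for any transcript of a class I copy that has no probe of its own.

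Of the 12 genes that did not pass the brightness filter, 9 were class I heavy chains of the H2-M and H2-T families (H2-M1, H2-M5, H2-M10.1, H2-M10.2, H2-M10.3, H2-M10.4, H2-M10.6, H2-T18 and H2-T3-like). The other 3 belong to class II: H2-DMb2, H2-Eb2 and H2-Ea-ps. The probe of H2-Ea-ps, the E alpha chain that mice of the b haplotype do not express, was above background on 0 of 29 arrays. Just inside the filter were H2-M2, well above background on 6 arrays, and H2-M9 on 7, and just outside it were H2-Eb2 on 5 and H2-M10.4 on 4. H2-Ke2, a prefoldin subunit now named Pfdn6, and H2-Ke6, a steroid dehydrogenase, match the rule by name but present no antigen, and neither passed the test in any comparison. No member spot was flagged as saturated in Cy5. Saturation in the Cy3 channel of the pool was not checked, also for the bright probes of H2-K1, H2-Q10 and H2-Q7. Some livers lacked a value for B2m (28 livers measured), H2-Eb1 (27), H2-Q10 (28) and H2-Ab1 (23) because the scanner software marked the spot as an outlier.

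Slides numbered 8 for the 29 arrays, and no slide carried more than 1 liver of a group. On the array of cHF replicate 4, 80.8% of spots were well above background, against 55.0% to 62.5% on the others. All 6 hepatocyte markers looked for were bright enough to be tested. The 4 livers with the most Cd74 in their groups were cHF replicate 3 (0.38), cHF+R replicate 6 (0.98), cHF+PC replicate 2 (0.30) and cHF+PC+R replicate 6 (0.66).

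Livers of mice fed the phospholipids had lower values of 7 class I heavy-chain genes than livers on cHF alone. In cHF+PC against cHF, 7 of the 38 members fell and 0 rose, all 7 of them among the 19 class I heavy chains tested: H2-Q1, H2-Q8, H2-Q10, H2-K1, H2-Q7, H2-T3 and H2-Q5. Of all 19465 genes tested, 3.93% passed the threshold (2.11% lower and 1.82% higher), an adjusted p under 0.05 in limma with Benjamini-Hochberg adjustment over all genes. The share of members called was 18.4%, and the median change of the 38 members was -0.02 against 0.00 over all genes, so most members stayed near the middle. With slide as a block 6 members passed, and with median centring in place of loess 0 did, where 10 genes passed in all.

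H2-K1, one of the classical class I molecules of this strain, ran in the cHF group from 0.07 through a median of 0.10 to 0.31 (log2 ratio). In cHF+PC it ran from -0.25 through -0.14 to -0.09. The groups did not overlap, and cHF+PC was lower on all 7 slides that held both. The change was -0.28 ± 0.0481 (SE), a 1.22-fold lower level, with an adjusted p of 0.000812 in limma. The second H2-K1 probe, the one that shares a run with H2-T23, differed by -0.16 ± 0.0556 and did not pass (adjusted p over all probes 0.100 in limma). The other classical heavy chain, H2-D1, differed by -0.02 ± 0.0682 (adjusted p 0.922 in limma), with cHF livers between -0.16 and 0.10 and cHF+PC livers between -0.22 and 0.05.

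H2-Q10, a class I molecule that hepatocytes secrete, ran from -0.06 through 0.26 to 0.47 in cHF and from -0.62 through -0.30 to 0.02 in cHF+PC. Only the edges of the groups overlapped, and the change was -0.51 ± 0.0976 (adjusted p 0.00312 in limma). A second H2-Q10 probe, at chr17:35610036-35610095 of mm9, differed by -0.25 ± 0.0585 and also passed (adjusted p over all probes 0.0146 in limma). Both probes thus went the same way, at different sizes.

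H2-Q7, which encodes a Qa-2 molecule, ran from 0.05 through 0.18 to 0.29 in cHF and from -0.30 through -0.07 to 0.04 in cHF+PC, without overlap. Its change was -0.26 ± 0.0589 (adjusted p 0.00962 in limma). H2-Q8 ran from -0.03 through 0.20 to 0.38 in cHF and from -0.89 through -0.32 to 0.19 in cHF+PC, with some overlap. Its change of -0.56 ± 0.118 had an adjusted p of 0.00592 in limma. Both are heavy chains of the Qa region, as is H2-Q5. It ran from -0.12 through -0.01 to 0.08 in cHF and from -0.34 through -0.23 to -0.11 in cHF+PC, touching only at the edge, and its change of -0.21 ± 0.0501 passed too (adjusted p 0.0141 in limma). For the H2-Q5 probe the array files gave no position. Cells of the gut epithelium carry H2-T3, the thymus leukaemia antigen, on their surface. Its probe ran from 0.00 through 0.14 to 0.28 in cHF and from -0.26 through -0.08 to 0.13 in cHF+PC, so the groups overlapped. It differed by -0.24 ± 0.0688 (adjusted p 0.0425 in limma). That last call was kept in 7 of 14 other settings and lost in 7. Among the latter were slide as a block (adjusted p 0.0697 in limma) and the deposited table (adjusted p 0.0676 in limma). It was also lost in 11 of the 29 fits that left out a single liver, with adjusted p-values from 0.0249 to 0.0940 over those fits.

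Other heavy chains of the same region did not pass. H2-Q6 and H2-T23, the latter encoding Qa-1, each differed by 0.00. H2-Q2 differed by -0.01 ± 0.0664, and its second probe by -0.16 ± 0.0525 (adjusted p over all probes 0.0913 in limma). H2-gs10, listed by RefSeq as H2-Q4, differed by 0.13 ± 0.128. The lower values were therefore measured in 7 of 19 class I genes with the others between -0.10 and 0.13.

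H2-Q1 gave the largest change of the members in every comparison with cHF. In the cHF livers it ran from 0.02 through 0.64 to 1.22, a wide spread of 0.439 (SD, n = 7). In cHF+R it ran from -0.57 through -0.32 to -0.10, in cHF+PC from -0.45 through -0.01 to 0.34 and in cHF+PC+R from -0.70 through -0.20 to 0.02. Rosiglitazone livers lay wholly below the control livers, as did those given both before rounding, and livers given phospholipids alone overlapped them. The change with rosiglitazone was -1.02 ± 0.158, a 2.02-fold lower level, with an adjusted p of 0.000185 in limma. With the phospholipids it was -0.74 ± 0.147 (adjusted p 0.00374 in limma) and with both -1.01 ± 0.147 (adjusted p 4.67e-05 in limma). On slides holding both groups H2-Q1 was lower than cHF on 5 of 5, 7 of 7 and 7 of 7 slides respectively. Both the rosiglitazone change and the combined change of H2-Q1 passed under all 14 other settings tried and without any single array. Their size depended on the processing. Over those 14 settings the rosiglitazone change ran from -1.93 to -0.90 and the combined change from -1.72 to -0.83. The H2-Q1 probe was dim, with a mean log2 intensity over both channels of 7.74 against 15.99 for H2-K1. It was well above background on all 29 arrays.

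**Figure D1:**
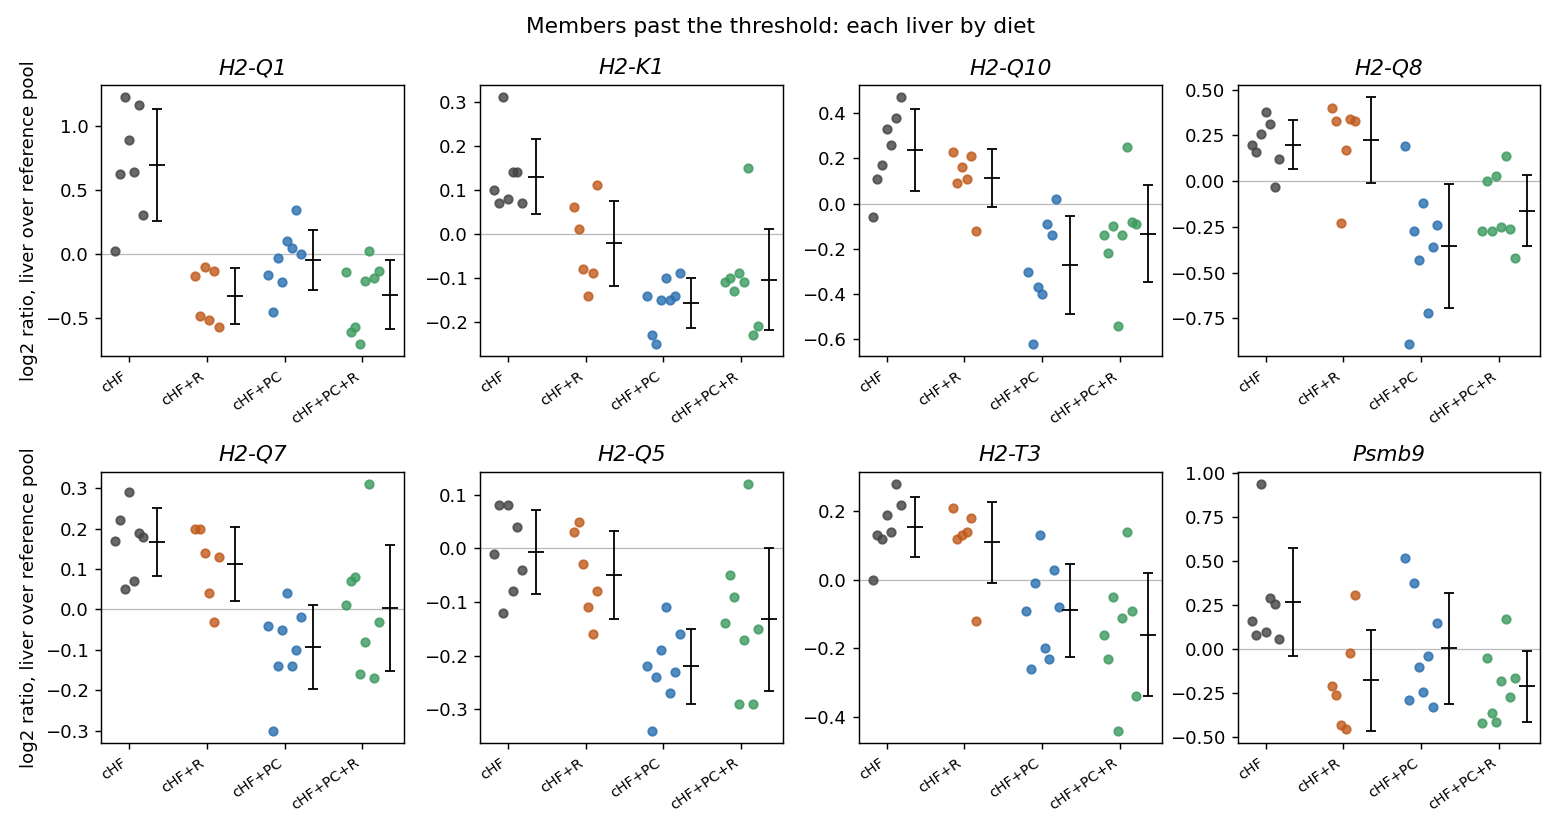
Log2 ratio of each liver over the reference pool (vertical axis) by diet group (horizontal axis) for the 8 members past the threshold in a comparison with cHF; each point is a liver, and the bar beside each group is its mean ± SD. H2-Q1 lies above 0 in every cHF liver (0.02 to 1.22) and below it in every cHF+R liver (-0.57 to -0.10), while H2-K1, H2-Q10, H2-Q8, H2-Q7, H2-Q5 and H2-T3 sit lowest in the 2 phospholipid groups.

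With rosiglitazone alone H2-Q1 was the only member that fell, 1 of 38 (2.63%), and 0 rose, beside 3.12% of all genes called (1.09% lower and 2.02% higher). The median member differed by -0.03 against 0.01 over all genes. H2-K1 differed by -0.15 ± 0.0518 (adjusted p 0.111 in limma) and Psmb9 by -0.44 ± 0.147 (adjusted p 0.101 in limma). Without cHF+R replicate 6 the Psmb9 change was -0.54 and passed (adjusted p 0.0314 in limma). Apart from H2-Q1, the heavy chains that fell with the phospholipids were not called here. Besides H2-K1, H2-Q8 differed by 0.02 ± 0.127, H2-T3 by -0.04 ± 0.0740 and H2-Q7 by -0.05 ± 0.0633. The change was -0.04 for H2-Q5 and -0.12 for H2-Q10. A direct difference between cHF+PC and cHF+R was not tested. In the same comparison the adipocyte markers Cfd, which differed by 4.51 ± 0.835 (adjusted p 0.00149 in limma), and Retn, by 0.65 ± 0.185 (adjusted p 0.0456 in limma), rose, whereas Adipoq, Plin1 and Lep were too dim to test. Their part in the H2-Q1 change was not tested.

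With both supplements 6 of 38 members fell and 0 rose (15.8%), beside 9.5% of all genes called (4.76% lower and 4.74% higher). They were H2-Q1, H2-Q10 (-0.37 ± 0.0945), H2-Q8 (-0.36 ± 0.118), H2-T3 (-0.31 ± 0.0688), H2-K1 (-0.24 ± 0.0481) and the immunoproteasome subunit Psmb9. The H2-K1 livers ran from -0.23 through -0.11 to 0.15, so that replicate 6, the highest, overlapped the cHF livers, and the adjusted p was 0.00220 in limma. The adjusted p was 0.0128 for H2-Q10, 0.00396 for H2-T3 and 0.0475 for H2-Q8 in the same fit. In the deposited table H2-T3 did not pass here (-0.35, adjusted p 0.13 in limma). The second probes of H2-Q10 (-0.16 ± 0.0585) and H2-K1 (-0.12 ± 0.0556) did not pass with both supplements (adjusted p over all probes 0.0877 and 0.194 in limma). H2-Q7 (-0.16 ± 0.0589, adjusted p 0.0776 in limma) and H2-Q5 (-0.12 ± 0.0501, adjusted p 0.124 in limma) did not pass in this group, but both did without cHF+PC+R replicate 6 (-0.21 and -0.16, adjusted p 0.0113 and 0.0245 in limma). H2-Q7 passed as well with array weights (adjusted p 0.0241 in limma) and in the deposited table (adjusted p 0.0308 in limma). The H2-Q8 call was lost in 18 of the 29 fits that left out a single liver, with an adjusted p of 0.0690 in limma with slide as a block and from 0.0260 to 0.0898 over those fits. Median centring and scaling between arrays each left 1 of the 6 calls.

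Set against rosiglitazone alone, the combined diet gave 1 member lower and 0 higher of 38, beside 7.14% of all genes called (3.83% lower and 3.31% higher). That gene was H2-T3, which ran from -0.12 through 0.13 to 0.21 in cHF+R and from -0.44 through -0.13 to 0.14 in cHF+PC+R, and was lower on 6 of 6 slides. Its change was -0.27 ± 0.0718 (adjusted p 0.0203 in limma). It did not pass without cHF+R replicate 1 (adjusted p 0.0619 in limma). Of 14 other settings, 9 kept this H2-T3 call, 4 lost it and 1 reversed its sign. In the deposited table the change was -0.19 (adjusted p 0.506 in limma), and with only the 2 groups fitted -0.27 (adjusted p 0.067 in limma). H2-Q8 differed by -0.39 ± 0.123 (adjusted p 0.0529 in limma) and passed without any 1 of 5 livers, among them cHF+R replicate 3 (-0.48, adjusted p 0.0172 in limma) and cHF+PC+R replicate 6 (-0.43, adjusted p 0.0282 in limma). Without the latter H2-Q10 passed too (-0.30, adjusted p 0.0422 in limma). Against the phospholipids alone, adding rosiglitazone gave 0 of 38 members past the threshold in limma and 1 at an unadjusted p under 0.05 (Nlrc5, 0.21 ± 0.0894), beside 0.134% of all genes called (0.0154% lower and 0.118% higher).

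No member showed an interaction of the 2 supplements: 0 of 38 passed in limma, 2 had an unadjusted p under 0.05, and 0% of all genes were called. These were H2-Q1, whose interaction term was 0.75 ± 0.212 (adjusted p 0.503 in limma), and H2-K1, with 0.20 ± 0.0696 (adjusted p 0.652 in limma). A term above 0 means a combined change smaller than the sum of both separate decreases. For H2-Q1 the combined change (-1.01) was close to the rosiglitazone change alone (-1.02). Averaged over rosiglitazone, the phospholipids lowered 7 of 38 members and raised 0, beside 16.2% of all genes called (8.63% lower and 7.61% higher). The list was the one of cHF+PC against cHF, with H2-Q8 at -0.47 ± 0.0851 (adjusted p 0.000328 in limma), H2-Q10 at -0.38 ± 0.0693 (0.000453), H2-K1 at -0.18 ± 0.0348 (0.000561) and H2-T3 at -0.26 ± 0.0497 (0.000708). The second H2-Q2 probe passed in this average (-0.13 ± 0.0379, adjusted p over all probes 0.0171 in limma), unlike the first. The second H2-Q10 probe passed there too (-0.19 ± 0.0423, adjusted p over all probes 0.00293 in limma). The second H2-K1 probe did not (-0.09 ± 0.0402, adjusted p over all probes 0.147 in limma). Averaged over phospholipids, rosiglitazone lowered 1 member, H2-Q1 (-0.64 ± 0.106, adjusted p 0.000221 in limma), beside 4.2% of all genes called (1.55% lower and 2.65% higher).

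**Figure D2:**
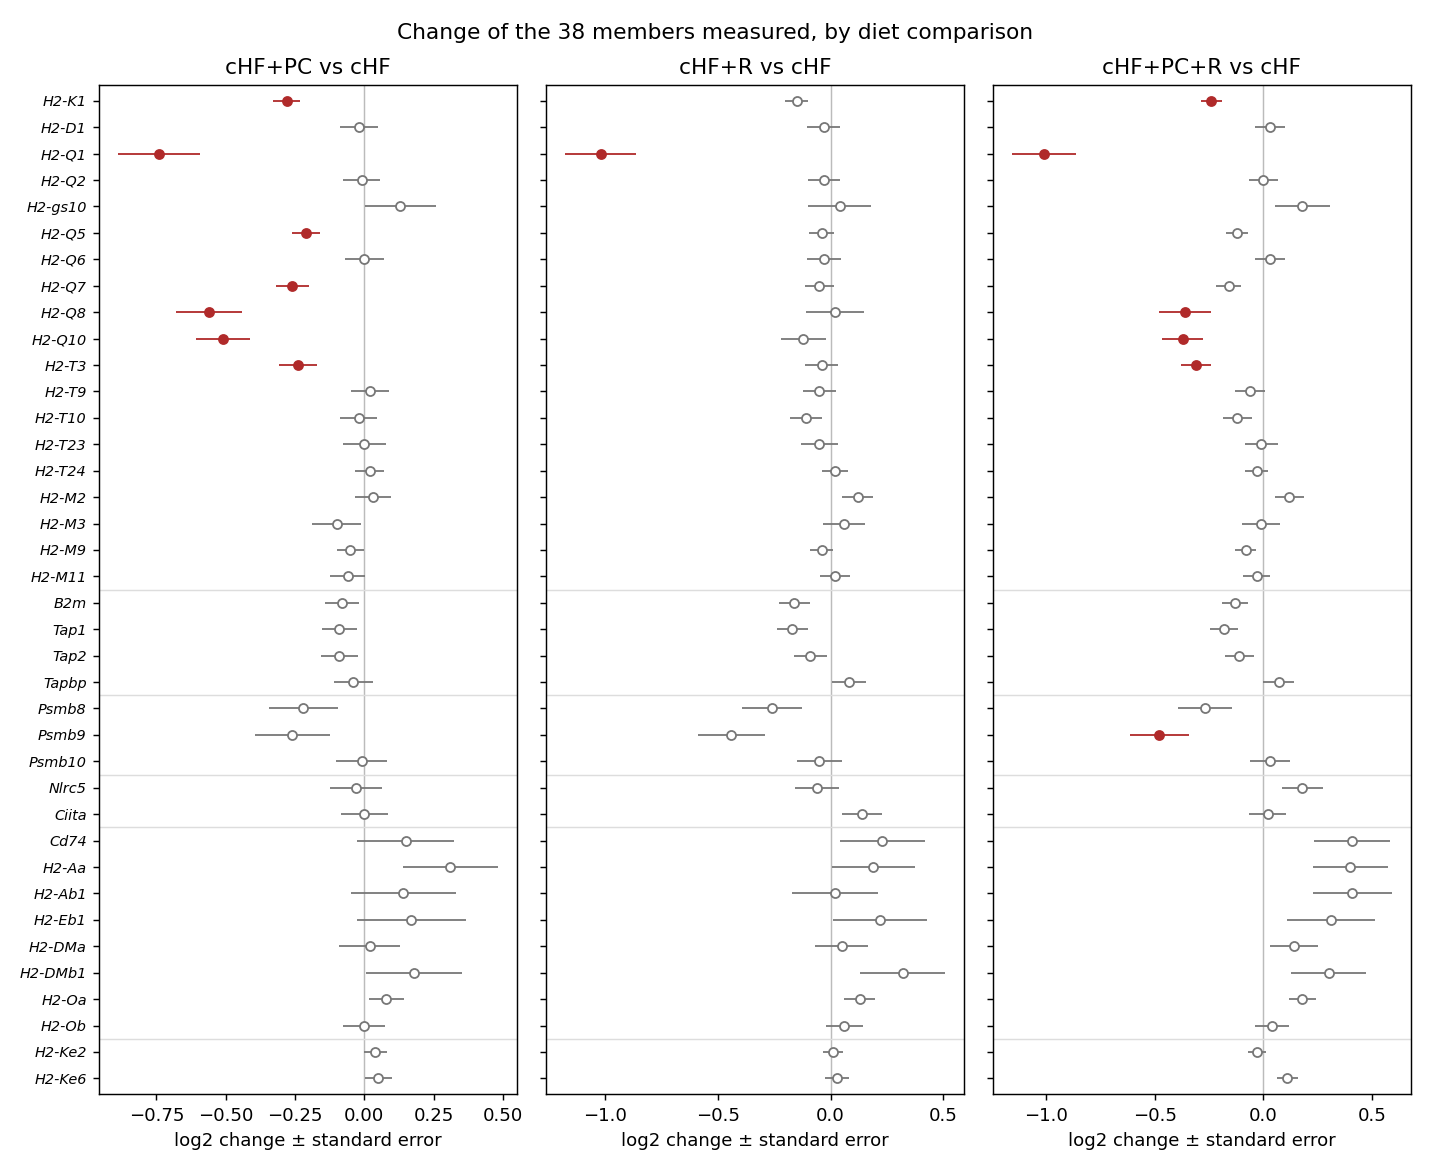
Log2 change ± standard error (horizontal axis) of each of the 38 members tested (rows, ordered by role with lines between roles) in the 3 comparisons with cHF; filled red points passed the adjusted threshold and open grey points did not. The 7, 1 and 6 filled points all lie left of 0, and the 8 class II genes near the bottom lie at or right of 0 in each panel with none filled.

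The partners of the heavy chains moved less. B2m, the light chain of every class I molecule, ran from 0.10 through 0.19 to 0.41 in cHF, from -0.12 through 0.03 to 0.41 in the 5 cHF+R livers measured, from -0.01 through 0.11 to 0.25 in cHF+PC and from -0.01 through 0.06 to 0.23 in cHF+PC+R. Its changes were -0.08 ± 0.0608, -0.16 ± 0.0688 and -0.13 ± 0.0608 with phospholipids, rosiglitazone and both, and the lowest adjusted p was 0.184 in limma. Among the transporter genes, Tap1 differed by -0.09, -0.17 and -0.18 in the same order (lowest adjusted p 0.0717 in limma). Tap2 differed by -0.09, -0.09 and -0.11, and Tapbp by -0.04, 0.08 and 0.07. With all livers none of these 4 genes passed in any of the 8 comparisons. Without cHF+R replicate 1, the highest of its group, B2m passed in cHF+R against cHF (-0.25, adjusted p 0.0122 in limma) and for rosiglitazone averaged over phospholipids (-0.15, adjusted p 0.0161 in limma). Tap1 passed in cHF+PC+R against cHF without cHF+PC+R replicate 6 (-0.21, adjusted p 0.0303 in limma), without cHF+R replicate 6 (-0.18, adjusted p 0.0469 in limma) and with only the 2 groups fitted (-0.18, adjusted p 0.0450 in limma). For rosiglitazone on average Tap1 passed with array weights (-0.16, adjusted p 0.0227 in limma) and without cHF+R replicate 6 (-0.15, adjusted p 0.0390 in limma).

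Psmb9, which replaces a constitutive catalytic subunit in the immunoproteasome, ran in cHF from 0.06 through 0.16 to 0.94 and in cHF+PC+R from -0.42 through -0.23 to 0.17. The highest cHF value belonged to replicate 3. The change with both supplements was -0.48 ± 0.136 (adjusted p 0.0242 in limma). Leaving out cHF replicate 3 brought it to -0.37, which did not pass (adjusted p 0.0706 in limma), nor did it without cHF+PC+R replicate 4 (-0.45, adjusted p 0.0509 in limma). Psmb8, another inducible subunit, differed by -0.22 ± 0.124, -0.26 ± 0.133 and -0.27 ± 0.124 with phospholipids, rosiglitazone and both, with no call. Psmb10 stayed between -0.05 and 0.03.

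The changes of class II genes were mostly above 0, and none passed with all livers. In cHF+PC+R against cHF, Cd74 differed by 0.41 ± 0.175, H2-Ab1 by 0.41 ± 0.180, H2-Aa by 0.40 ± 0.172, H2-Eb1 by 0.31 ± 0.203 and H2-DMb1 by 0.30 ± 0.174. All 8 class II genes had positive changes there, with a median of 0.30 and the lowest adjusted p 0.0760 in limma (H2-Oa, the inhibitory DO alpha chain). With phospholipids alone the median of the 8 was 0.15, and with rosiglitazone alone 0.16. The first of these was 0.08 without cHF replicate 1 or without cHF+PC replicate 1 and 0.25 without cHF replicate 3, and 2 of the 8 were negative without cHF replicate 2 or cHF+PC replicate 1 or 2. Single class II genes passed in some fits without 1 liver: H2-Oa in cHF+PC+R against cHF without cHF+PC+R replicate 5 (0.21, adjusted p 0.0381 in limma) or cHF+R replicate 6 (0.18, adjusted p 0.0485 in limma), and H2-Aa for phospholipids on average without cHF+R replicate 6 (0.34, adjusted p 0.0317 in limma). Scaling between arrays after loess turned 3 of the 8 negative in cHF+PC against cHF, and leaving out cHF+R replicate 6 turned 2 of the 8 negative in cHF+R against cHF and took their median to 0.04.

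Class II genes varied widely among livers of a group. Cd74 ran in cHF from -0.43 through -0.30 to 0.38, in cHF+R from -0.49 through -0.09 to 0.98, in cHF+PC from -0.38 through -0.14 to 0.30 and in cHF+PC+R from -0.31 through 0.19 to 0.66. All 4 groups overlapped widely. H2-Eb1, Cd74, H2-DMb1, H2-Aa and H2-Ab1 were the 5 most variable members within groups, with standard deviations of 0.391, 0.360, 0.357, 0.354 and 0.351, while H2-K1 had 0.0906. The median within-group standard deviation was 0.139 over the 38 members and 0.111 over all genes tested. The coactivators had smaller standard deviations: Ciita had 0.169 and Nlrc5 0.187, and neither passed in any comparison with all livers.

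**Figure D3:**
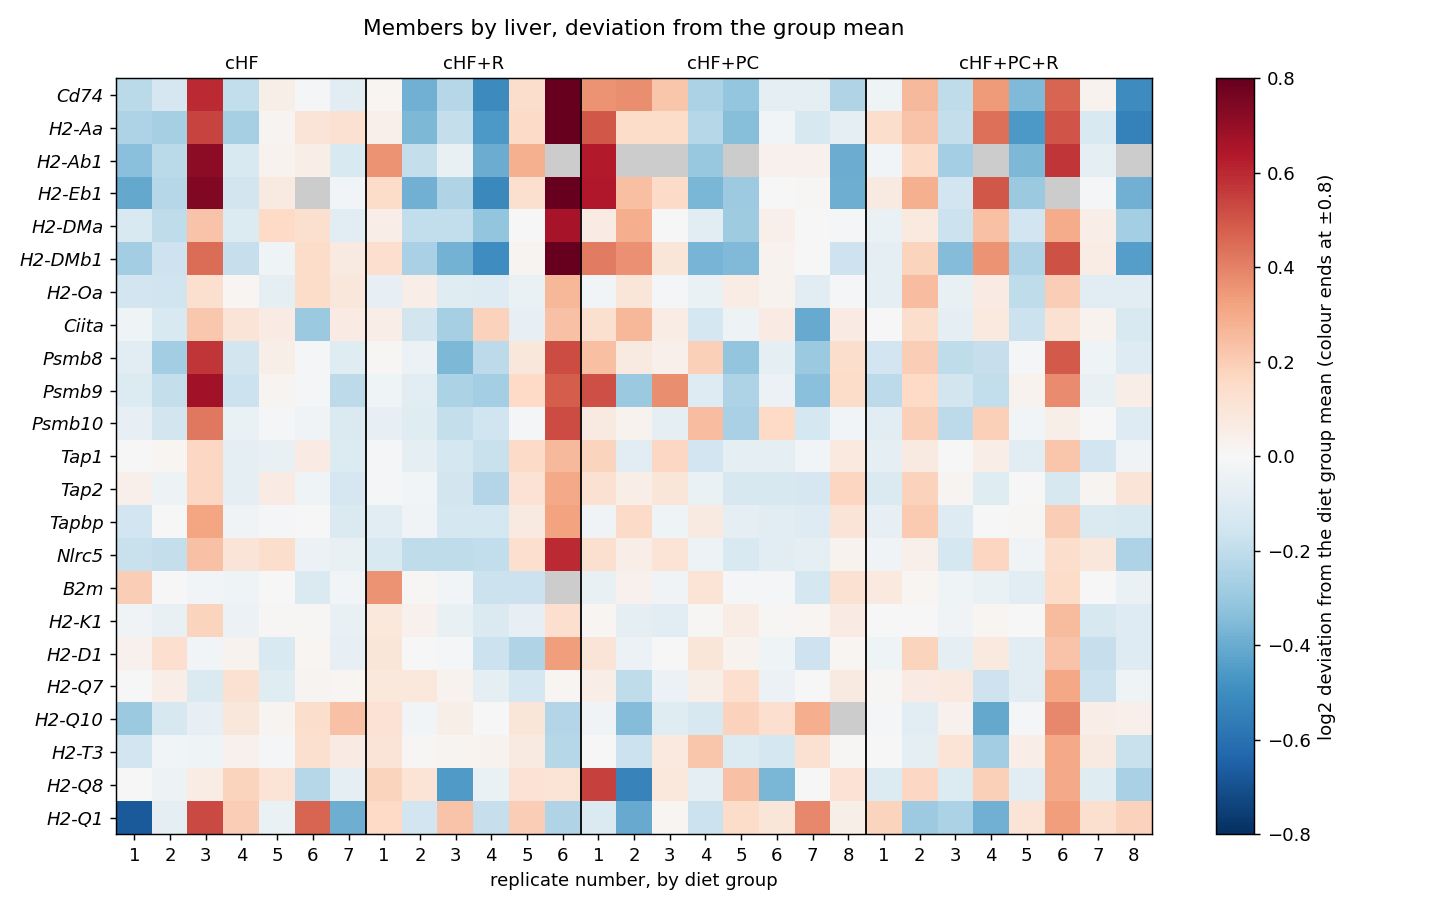
Deviation of each liver from its diet group mean (colour, log2, red higher and blue lower, grey no value) for 23 members (rows) in the 29 livers (columns, by group and replicate number). The class II rows at the top share their columns of red, such as cHF replicate 3 and cHF+R replicate 6. The H2-Q10, H2-T3, H2-Q8 and H2-Q1 rows at the bottom follow them in some livers only. In cHF+R replicate 6, H2-Q10, H2-T3 and H2-Q1 lay below their group means and H2-Q8 above. In cHF+PC+R replicate 6 all of these rows lay above their group means, as did H2-Q1 in cHF replicate 3.

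Class II genes varied together from liver to liver. After group means were removed, Cd74 and H2-Aa correlated with a Pearson r of 0.95 and a Spearman rho of 0.93 over 29 livers (adjusted permutation p 1.5e-05 and 3e-05 over 3 relations, two-sided, with 100000 resamples, whose smallest raw p is 1e-05). The r was 0.93 without the 2 livers farthest from the Cd74 median and 0.96 after slide means were removed as well. In the same way Tap1 and Psmb9, which share the interval printed above, correlated with r = 0.82 and rho = 0.72 (adjusted permutation p 1.5e-05 and 4.5e-05), with r = 0.77 without the 2 farthest livers and 0.79 without slide means. B2m and H2-K1 were only loosely related, with r = 0.41 and rho = 0.37 over 28 livers (adjusted permutation p 0.0348 and 0.0543), r = 0.46 without the 2 farthest and 0.39 without slide means. Under scaling between arrays that last relation turned to -0.25 and under quantile-normalized Cy5 to 0.02.

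**Figure D4:**
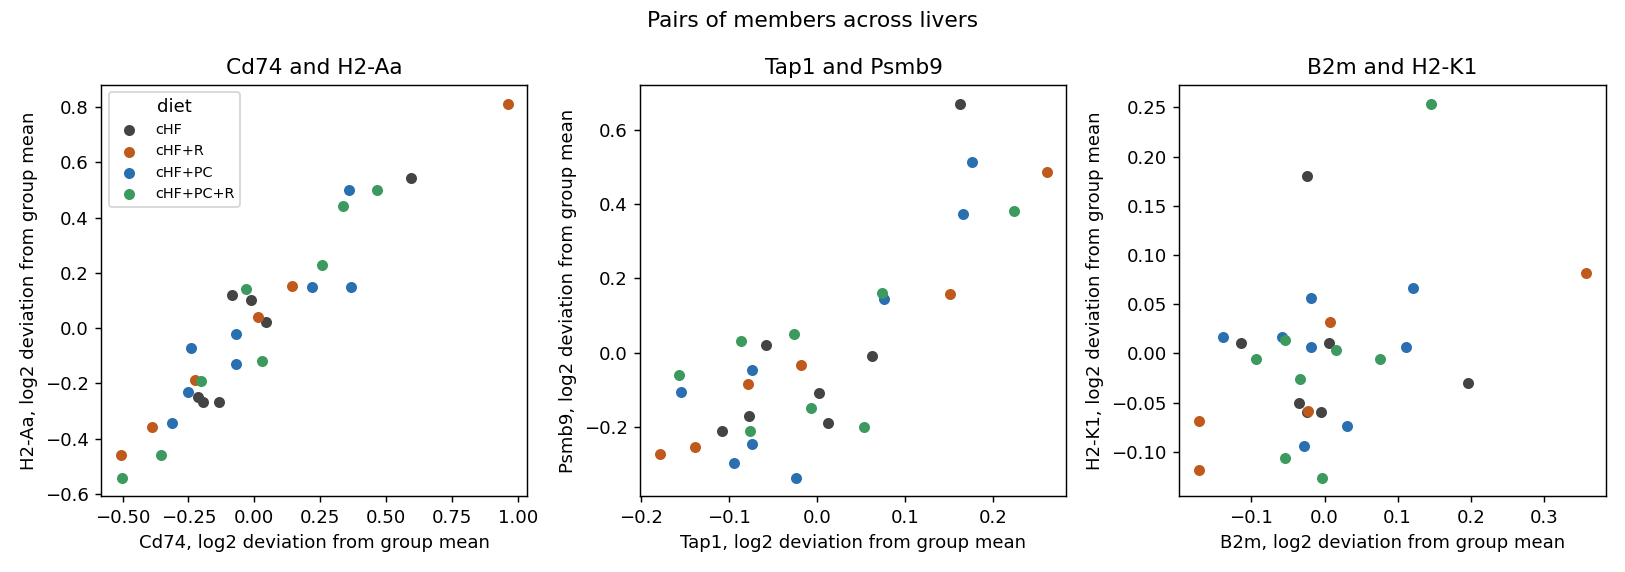
Deviations from diet group means (log2) of 2 members plotted against each other, a point per liver, coloured by diet. Cd74 and H2-Aa follow a line (r = 0.95), Tap1 and Psmb9 do so more loosely (r = 0.82), and B2m and H2-K1 scatter (r = 0.41).

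A further 15 relations were chosen after their values were seen and adjusted together. Cd74 followed the other class II genes closely: r was 0.96 with H2-Eb1 (27 livers), 0.96 with H2-DMb1, 0.92 with H2-DMa and 0.92 with H2-Ab1 (23 livers), each at the smallest adjusted permutation p of 3e-05 for r and for rho, with rho from 0.90 to 0.95. Without the 2 farthest livers these r values lay between 0.86 and 0.94, and without slide means between 0.87 and 0.98. The r was lower with an inhibitor and a regulator of the pathway, at 0.66 with H2-Oa and 0.55 with Ciita (rho 0.56 and 0.57, adjusted permutation p at most 0.00286), with 0.52 and 0.43 without the 2 farthest livers, and 0.70 and 0.62 without slide means.

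Cd74 was also related to the class I loading genes, with r = 0.74 for Tap1 and 0.65 for Psmb9 (rho 0.60 and 0.45, adjusted permutation p at most 0.0214), 0.63 and 0.46 without the 2 farthest livers, and 0.74 and 0.65 without slide means. Several of these values moved with the normalization. Scaling between arrays brought r to 0.29 for H2-Oa, 0.05 for Psmb9 and 0.26 for H2-K1, and Ciita had 0.28, 0.31 and 0.34 under scaling, median centring and quantile-normalized Cy5. With H2-K1 the r of 0.52 (adjusted permutation p 0.00600) came beside a rho of 0.28 (adjusted permutation p 0.157) and fell to 0.31 without the 2 farthest livers, so it rests on them. With H2-Q10 it was -0.26 and did not pass (rho -0.20, adjusted permutation p 0.204 and 0.340), -0.12 without the 2 farthest livers and -0.43 without slide means. Median centring turned it to 0.69 (permutation p 0.00016), so its sign depends on the normalization. Psmb8 and Psmb9 varied together (r = 0.86, rho = 0.81, adjusted permutation p 3e-05 for both), with 0.77 without the 2 farthest and 0.89 without slide means.

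Among the heavy chains lowered by the phospholipids, H2-Q10 and H2-T3 had r = 0.64 and rho = 0.52 over 28 livers (adjusted permutation p 0.000405 and 0.00780), and 0.44 without the 2 farthest livers. Their probes share the 22 bases printed above. H2-Q10 and H2-Q1, whose probes share no such run, had r = 0.64 and rho = 0.61 (adjusted permutation p 0.000383 and 0.00189), 0.58 without the 2 farthest and 0.43 without slide means, and 0.27 under scaling between arrays. With H2-Q8, r was 0.10 (rho -0.01, adjusted permutation p 0.605 and 0.957), but 0.85 under median centring (permutation p 1e-05, the smallest possible). With H2-Q7, the r of 0.50 (rho 0.32, adjusted permutation p 0.00794 and 0.125) fell to 0.25 without the 2 farthest livers.

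Cell-type markers varied with Cd74 as well. Of 49 markers measured, 22 correlated with Cd74 across livers at an adjusted permutation p under 0.05 for r, all of them positively. The share of all genes that correlate with Cd74 was not computed. These marker relations were not repeated under the other normalizations. Kupffer cell and macrophage markers led, with 9 of 10 passing and a median r of 0.78: C1qa, a complement component made by macrophages, had r = 0.83 and rho = 0.79 (adjusted permutation p 6.13e-05 and 0.000245), 0.78 without the 2 farthest livers and 0.85 without slide means. Of B cell markers 3 of 4 passed, of T and NK cell markers 4 of 6, of dendritic cell markers 3 of 6 and of neutrophil markers both. Hepatocyte, stellate cell, cholangiocyte and adipocyte markers gave 0 passing of 6, 5, 2 and 2, and endothelium 1 of 6 (Lyve1, r = 0.51). The part of these cells in the class II values was not tested.

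**Figure D5:**
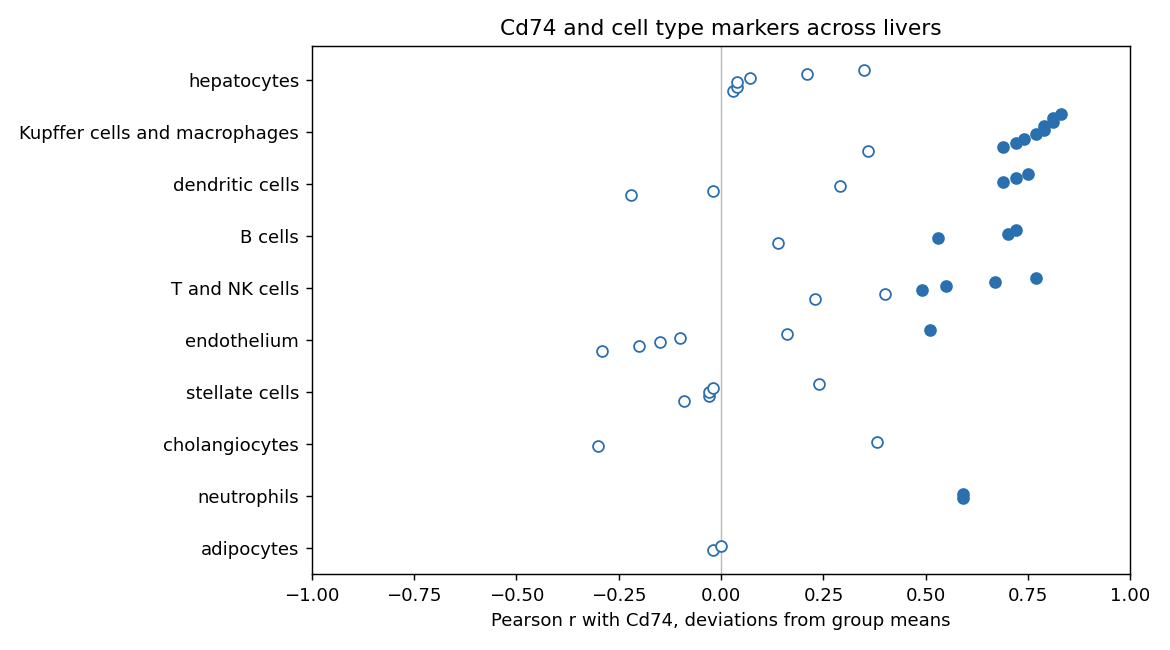
Pearson r with Cd74 (horizontal axis) of each measured marker (points) by cell type (rows), from deviations from group means across livers; filled points passed the adjusted permutation threshold. Kupffer cell and macrophage markers reach 0.83, and the hepatocyte markers lie between 0.03 and 0.35.

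Between diets, few of these markers passed. In none of the 3 comparisons with cHF did a Kupffer cell, dendritic cell, B cell, T and NK cell, endothelium, cholangiocyte or neutrophil marker pass. The mean over the 10 Kupffer cell and macrophage markers ran from -0.47 through -0.11 to 0.19 in cHF, from -0.23 through -0.08 to 0.75 in cHF+R, from -0.57 through -0.30 to 0.20 in cHF+PC and from -0.49 through -0.13 to 0.27 in cHF+PC+R. In cHF+R replicate 6, the liver with the most Cd74, that mean was 0.75 against at most 0.27 in the other 5. Of the 6 hepatocyte markers, 1 fell with the phospholipids (Ttr, -0.50 ± 0.104, adjusted p 0.00519 in limma) and 1 with rosiglitazone (Serpina1a, -0.35 ± 0.0825, adjusted p 0.0131 in limma). With both, these 2 fell and Cps1 rose. Lrat, a stellate cell enzyme that stores retinol, fell with the phospholipids (-0.49 ± 0.0904, adjusted p 0.00200 in limma), 1 of 5 stellate cell markers. Their part in the lower class I values was not tested.

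In the neighbouring steps of the pathway few genes passed. Of 7 measured genes for peptide loading and trimming outside the members, 0 passed in any comparison with cHF. Of 11 proteasome partners, Psmb7 rose with the phospholipids (0.16 ± 0.0370, adjusted p 0.0127 in limma), Psma3 with rosiglitazone (0.17 ± 0.0445, adjusted p 0.0400 in limma), and Psmb7 and Psmb4 with both. Of 8 genes for class II loading and lysosomal proteolysis, 0 passed against cHF. Of 7 class I-like genes, Hfe, an iron regulator that pairs with B2m, fell with the phospholipids (-0.17 ± 0.0493, adjusted p 0.0420 in limma) and with both (-0.20 ± 0.0493, adjusted p 0.00976 in limma). Azgp1, a lipid-mobilising class I-like protein, fell with rosiglitazone (-0.29 ± 0.0606, adjusted p 0.00525 in limma).

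Of 11 interferon receptor and signalling genes, Ifnar2 (0.28 ± 0.0597, adjusted p 0.00367 in limma) and Jak1 (0.30 ± 0.0866, adjusted p 0.0257 in limma) rose with both supplements. Of 20 interferon targets outside the MHC, 0 passed in any of the 8 comparisons, and their median change was -0.10, -0.10 and -0.03 with phospholipids, rosiglitazone and both.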

How the data were processed

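Each of the 29 livers was measured on an Agilent 2-colour array. Per the submitters' processing notes, spots were read with Agilent Feature Extraction 10.5.1.1, and the deposited scanner files give intensity per spot, with positions on mm9 per the file headers. The deposited value table holds log2 values, normalized by the authors in a way not given in the sources used here; its columns had a common median of 9.03, and it served as an alternative. Here, mean intensity was corrected with normexp (offset 50) and loess in limma 3.58.1 (R 4.3.3), control spots having no weight. Outlier spots were left out, spots averaged per probe, probes kept if well above background on at least 6 arrays with values on at least 20, and the brightest probe taken for each gene. Group means of all 29 livers were fitted in limma, with p-values adjusted over all 19465 genes at a threshold of 0.05.

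Genes named with values were a set list of pathway members, every member past the threshold, second probes and listed markers past it. The members and lists were chosen with earlier results of these data known. Same-numbered livers are not paired by the labels. The fit was tested on simulated data. Correlations used numpy 2.4.6. The number of arrays limits the precision. Alternatives covered background, normalization, filter, deposited values, slide, weights and each array left out.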

Additional observations from a re-analysis of the deposited data

Results flagged for a closer look

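In 12 of 92 combinations of a named gene and a diet group, 1 liver lay far from the others of its group (Dixon's test); chance gives about 1 combination in 20, and genes that vary together are not independent. Of these, 7 were the cHF replicate 3 liver, highest of its 7 for Psmb9 (0.94, next 0.29), Psmb8 (0.72, next 0.19), H2-Ab1 (0.50, next -0.16), Cd74 (0.38, next -0.17), Psmb10 (0.34, next -0.10), H2-K1 (0.31, next 0.14) and Tapbp (0.27, next -0.04). In that liver the T and NK cell markers averaged 0.38 against at most 0.02 in the other 6, and the Kupffer cell and macrophage markers 0.09 against at most 0.19; their part was not tested.

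In the cHF+R group, replicate 6 was the lowest for H2-T3 (-0.12, next 0.12) and the highest for Psmb10 (0.39, next -0.14), and replicate 3 was the lowest for H2-Q8 (-0.23, next 0.17). B2m was highest in cHF replicate 1 (0.41, next 0.22). H2-K1 was highest in cHF+PC+R replicate 6 (0.15, next -0.09).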

How the results depend on the processing

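The counts of members past the threshold stayed within 1.5 times of the reported count apart from the following. With median centring in place of loess, the count was 0 in cHF+PC against cHF, 1 in cHF+PC+R against cHF, 0 in cHF+PC+R against cHF+R and 0 for phospholipids averaged over rosiglitazone; that setting also left 10 genes of all called in cHF+PC against cHF, against 765, and moved the median of all genes from 0.01 to 0.15 in cHF+R against cHF. Scaling between arrays gave 4, 1 and 0 in the first 3 of these comparisons, and quantile-normalized Cy5 alone 4, 2, 0 and 3. In cHF+PC+R against cHF+R the count was 2 with no filter, with probes above background on all 29 arrays, with slide as a block or with array weights, and 0 with only the 2 groups fitted. In the deposited table the count there stayed 1, but the gene was Nlrc5, which was higher, and not H2-T3. For rosiglitazone averaged over phospholipids it was 2 with no background subtraction, with processed signals, with the deposited table, with no filter, with the strict filter and with the replicate block, and 3 with array weights; Psmb9 passed there in 6 of the settings tried. The cause was not tested. Leaving out single arrays gave 6 to 7 in cHF+PC against cHF, 1 to 2 in cHF+R against cHF (2 without cHF+R replicate 1 or 6), 4 (without cHF replicate 3) to 9 (without cHF+PC+R replicate 6) in cHF+PC+R against cHF, 0 (without cHF+R replicate 1) to 3 (without cHF+PC+R replicate 6; 2 without cHF+R replicate 3 or 6 or cHF+PC replicate 1, 2 or 6) in cHF+PC+R against cHF+R, 7 to 9 for phospholipids and 1 to 3 for rosiglitazone on average (3 without cHF+R replicate 6; 2 without cHF replicate 7, cHF+R replicate 1, cHF+PC replicate 2, 5 or 7, or cHF+PC+R replicate 2 or 6), and 0 for the interaction and for cHF+PC+R against cHF+PC.

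The replicate block, with same-numbered livers correlating at a median r of 0.02 and other pairs at 0.00, gave 6, 1, 6, 1, 0, 0, 7 and 2 members in the 8 comparisons; H2-T3 in cHF+PC against cHF (adjusted p 0.0832 in limma) and H2-Q8 in cHF+PC+R against cHF (adjusted p 0.0761 in limma) were lost, and H2-Oa (0.19, adjusted p 0.0448 in limma) was gained higher in cHF+PC+R against cHF.

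One gene reversed: H2-T3 in cHF+PC+R against cHF+R was 0.25 under quantile-normalized Cy5 (adjusted p 0.881 in limma). Among relations, B2m with H2-K1 turned to -0.25 under scaling and weakened to 0.02 under quantile-normalized Cy5, and H2-Q10 with H2-Q7 turned to -0.15 under quantile-normalized Cy5. Median centring turned Cd74 with H2-Q10 from -0.26 to 0.69.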

Other observations

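The second H2-Q2 probe lies in mm9 at chr17:35460007-35460066, beside the H2-Q1 probe (chr17:35461859-35461918), and the first at chr17:35482113-35482172. Under rosiglitazone the second probe differed by 0.01 ± 0.0564, while H2-Q1 fell.

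The brighter Nlrc5 probe had higher means in cHF+PC+R than in each of the other groups, without passing: 0.18 ± 0.0925 against cHF, 0.23 ± 0.0966 against cHF+R and 0.21 ± 0.0894 against cHF+PC (adjusted p 0.235, 0.138 and 0.521 in limma). In the deposited table it passed against cHF+R (0.29, adjusted p 0.0481 in limma). In the scanner data without cHF+R replicate 6 it passed against cHF+R as well (0.35, adjusted p 0.00327 in limma). With that liver left out, Nlrc5 passed for phospholipids on average too (0.16, adjusted p 0.0262 in limma). A second Nlrc5 probe, dimmer but above background on all 29 arrays, did not show this: it differed by 0.02 ± 0.0490 against cHF, 0.09 ± 0.0511 against cHF+R and -0.01 ± 0.0473 against cHF+PC.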
